A study of Mus musculus with 9 samples.

Results

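Collagens are the main structural proteins of the extracellular matrix, and each is built from chains that wind around one another into a rope-like helix. Fibrillar collagens form the cables that carry tension between heart muscle cells, network collagens form the sheets of basement membranes around vessels and muscle cells, and type VI collagen forms beaded microfibrils between both. The remaining chains sit on fibrils, beside basement membranes or across cell membranes, and the amount of interstitial collagen is the usual measure of fibrosis in a ventricle under pressure load. The question here was which of these chains differed in the right ventricle after monocrotaline (MCT) and whether a nutritional intervention (NI) went together with different levels. Every gene with a collagen chain symbol of the form Col, a type number, a and a chain number was taken, whatever its level, if the array carried a probe set of that gene alone, and the brightest was used where there were several. The annotation held 44 such genes, of which 42 could be measured among 18820 genes in all. They were 11 fibrillar, 9 network, 6 microfibrillar and 16 other chains. Col9a3, a chain of a cartilage collagen, and Col7a1, the chain of the anchoring fibrils of skin, had probe sets shared with another gene only and were left out.

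Right ventricular RNA was hybridised to 1 Affymetrix whole-transcript mouse gene array per mouse, from 9 female C57BL/6 mice that arrived at 8 weeks of age. The 3 sham mice (620, 624 and 625) received saline and the standard diet AIN-93M, the 3 MCT mice (640, 641 and 644) received MCT and the same diet, and the 3 MCT + NI mice (615, 617 and 619) received MCT and an isocaloric diet with added fish oil, oligosaccharides and leucine and more protein. MCT, a plant alkaloid whose liver metabolites injure pulmonary vessels and so load the right ventricle, was injected under the skin weekly at 600 mg/kg for 8 weeks from 10 weeks of age. Diets began 2 weeks earlier according to the labels, the study's methods give a shorter lead, and the methods state that the mice put on arrays were matched for severity of disease. No animal on the NI diet without MCT was analysed here, so the diet was seen in MCT mice only. Values are log2 intensities, on which a difference of 1 is 2-fold. They are listed in the order of the mouse numbers above, and levels of different genes cannot be compared because each probe set has its own brightness. The tissue was taken whole, so that more cells of a type and more RNA per cell cannot be told apart.

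Correlations between arrays ranged from 0.983 to 0.997 and no 2 arrays held identical values. Atrial markers were high in all sham mice and split both groups given MCT. The mean of 7 atrial markers was 10.13, 11.01 and 10.91 in the sham mice, 5.56, 5.91 and 10.63 in the MCT mice and 9.12, 6.33 and 5.67 in the MCT + NI mice. Myl7, the light chain of atrial myosin, was at 10.55, 11.77 and 11.57 in sham, 3.07, 3.66 and 11.40 in MCT and 9.79, 5.21 and 3.92 in MCT + NI mice. MCT mouse 644 and MCT + NI mouse 615 were thus nearer to the sham mice than to their own groups. All 7 markers were lower at an unadjusted p under 0.05 in either group than in sham mice, with 0 called in limma. Counts of collagen chains against sham mice are given below with and without both mice. Between MCT + NI and MCT mice only a pair of chains is given without both. Markers of ventricular muscle cells were high in all mice, with a mean over 7 genes of 11.8 to 11.9, and 0 of the 7 passed the limma test in any of the 3 comparisons, with 1 past an unadjusted p of 0.05 between MCT + NI and sham mice.

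Of the 42 chains, 34 could be matched by symbol to a RefSeq promoter window, the 250 bases before and 50 after an annotated start on GRCm38.p6, and Col1a1, Col2a1, Col4a3, Col5a2, Col12a1, Col14a1, Col22a1 and Col26a1 were not matched. Several chain genes are neighbours. Col4a1 and Col4a2, the chains with the highest difference between MCT and sham mice, lie head to head on chromosome 8, with annotated starts at 11312826 and 11312805 and gene records that overlap by 85 bases. Shown are the 22 bases from one start to the other (chr8:11312805-11312826, plus strand). Also shown are the 250 bases before the annotated start of 1 chain of each other class. Each of these chains was higher after MCT and has a single promoter window. These were Col1a2 (chr6:4505368-4505617, plus strand), Col6a1 (chr10:76726045-76726294, minus strand) and Col15a1 (chr4:47207762-47208011, plus strand). Capitals mark matches on either strand to CCAAT, the box bound by nuclear factor Y, GGGCGG, the GC box bound by Sp1, TATAAA, the TATA box, and CAGAC, the core of the element bound by Smad proteins.
Col4a1 and Col4a2 between their starts: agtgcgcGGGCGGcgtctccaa
Col1a2: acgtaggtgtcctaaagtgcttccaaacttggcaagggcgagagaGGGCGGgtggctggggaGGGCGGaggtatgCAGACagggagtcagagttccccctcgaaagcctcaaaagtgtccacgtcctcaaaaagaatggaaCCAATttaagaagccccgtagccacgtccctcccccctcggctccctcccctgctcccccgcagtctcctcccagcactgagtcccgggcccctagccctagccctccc
Col6a1: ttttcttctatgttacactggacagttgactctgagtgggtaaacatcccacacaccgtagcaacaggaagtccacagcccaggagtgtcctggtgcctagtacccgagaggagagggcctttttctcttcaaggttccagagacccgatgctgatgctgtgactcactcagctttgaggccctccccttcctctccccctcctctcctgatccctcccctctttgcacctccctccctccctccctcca
Col15a1: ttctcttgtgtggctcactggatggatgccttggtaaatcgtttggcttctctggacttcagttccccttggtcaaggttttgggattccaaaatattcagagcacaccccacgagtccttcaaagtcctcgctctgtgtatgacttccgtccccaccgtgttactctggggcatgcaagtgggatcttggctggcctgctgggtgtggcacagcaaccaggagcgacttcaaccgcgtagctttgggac
The stretch between the type IV starts held a GC box and the Col1a2 stretch held a CCAAT box, 2 GC boxes and a CAGAC. The stretches of Col6a1 and Col15a1 held none of the 4 motifs. The Col15a1 stretch lies inside its gene record, which begins at 47207655, and the full window of this chain holds a CAGAC. The levels of all of these genes were higher in MCT mice (below). Over the windows of 300 bases, CCAAT was found in 4 of 12 windows of chains higher in MCT mice (33.3%), in 8 of 25 windows of the other chains (32%) and in 37.4% of 32851 windows of all genes. GGGCGG was in 58.3%, 60% and 35.7%, TATAAA in 8.33%, 16% and 13.6%, and CAGAC in 66.7%, 44% and 49.6% of the same windows. The windows of Col4a1 and Col4a2 share 78 bases and those with 2 starts of Col6a2 and Col18a1 count separately, so these windows are not independent, and a match is a description of letters only.

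In MCT mice 13 of the 42 collagen chains were higher than in sham mice and 0 were lower, in limma at a Benjamini-Hochberg adjusted p under 0.05 over all genes. Among all genes 4.65% were higher and 1.61% lower by this test, and among the 10842 genes above the median probe set of the arrays 7.45% were higher. The 13 were Col1a1, Col1a2, Col3a1 and Col5a2 of the fibrillar class, Col4a1, Col4a2 and Col8a1 of the network class, Col6a1, Col6a2 and Col6a3 of the microfibrillar class and Col14a1, Col15a1 and Col18a1 among the others. Differences ran from 0.58 on the log2 scale, 1.49-fold, for Col14a1 to 1.78, 3.43-fold, for Col4a1. At an unadjusted p under 0.05 there were 15 higher and 1 lower, where all genes gave 10.6% and 9.14%. The lowest MCT value exceeded the highest sham value in 16 chains and fell under the lowest sham value in 1, against 11.7% and 10.2% of all genes. The median difference was 0.09 over all 42 chains and -0.02 over all genes, because most chains were near 0. It was 0.21 for the fibrillar, 0.10 for the network, 0.42 for the microfibrillar and -0.01 for the other chains. When mice 644 and 615 were left out the count was again 13, where 3.38% of all genes were higher. With the atrial markers' mean as a covariate it was 8, where 2.16% of all genes were higher. The differences of the 5 chains no longer called under this covariate were 0.98 for Col1a1, 1.17 for Col3a1, 0.75 for Col5a2, 1.01 for Col8a1 and 0.63 for Col6a2 (limma, adjusted p of 0.0515 to 0.137). Of the MCT mice only mouse 644, at 10.63, lay within the sham range of the atrial mean. The covariate and these groups are therefore hard to tell apart.

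**Figure D1:**
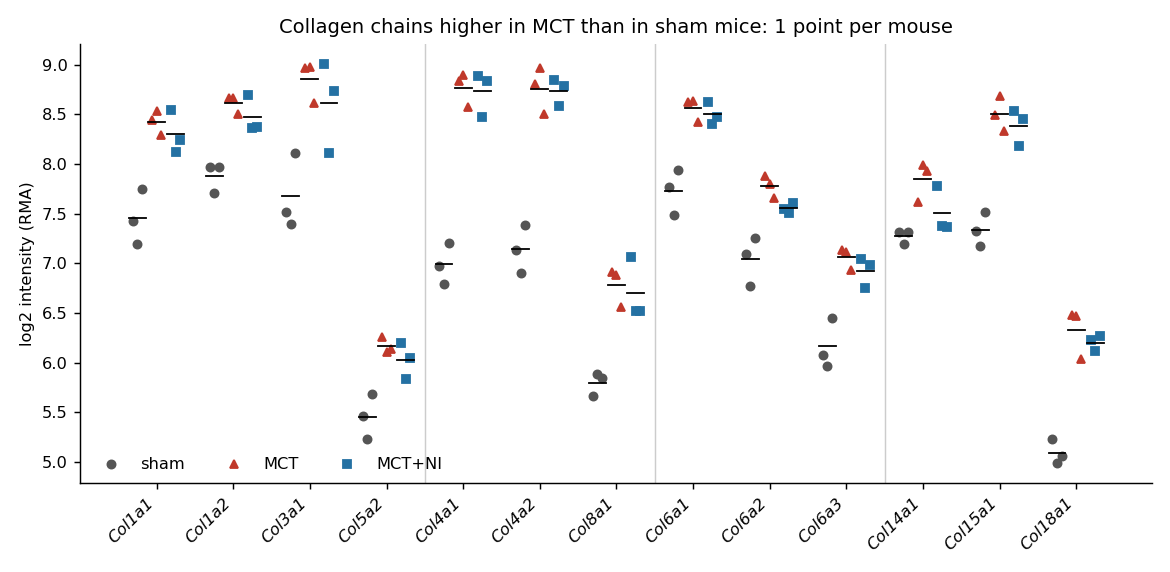
Log2 intensity of the 13 collagen chains that were higher in MCT than in sham mice, with 1 point per mouse and a bar at each group mean, in the order fibrillar, network, microfibrillar and other. MCT points lie above the sham points in all 13 chains, and in 12 of the 13 the MCT + NI points do so too, the exception being Col3a1, whose lowest MCT + NI value of 8.11 equals the highest sham value to 2 decimals.

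The major fibrillar chains rose together. Col1a1, the alpha 1 chain of type I and the bulk of interstitial collagen, was at 7.43, 7.20 and 7.75 in the sham mice, 8.45, 8.54 and 8.29 in the MCT mice and 8.54, 8.12 and 8.24 in the MCT + NI mice. All MCT and MCT + NI mice were above all sham mice, and MCT exceeded sham by 0.97 ± 0.15 (SE, n = 3 mice per group), 1.96-fold, with an adjusted p of 0.00574 in limma. Its partner Col1a2, the alpha 2 chain of type I, was at 7.97, 7.71 and 7.97 in sham, 8.67, 8.67 and 8.51 in MCT and 8.69, 8.37 and 8.37 in MCT + NI mice. Again the treated groups did not overlap with sham, and the difference was 0.73 ± 0.10, 1.66-fold (limma, adjusted p 0.00385). Col3a1, the chain of type III that forms the finer fibrils of extensible tissue, was at 7.52, 7.40 and 8.11 in sham and 8.97, 8.98 and 8.61 in MCT mice. It had the widest spread of the called chains, with sham mouse 625 well above the other 2, and its difference was 1.18 ± 0.25, 2.26-fold (limma, adjusted p 0.0248). This call was lost when sham mouse 620 or 624, or MCT mouse 640 or 641, was left out, with adjusted p of 0.0853, 0.0930, 0.0972 and 0.0909. Col5a2, a chain of type V, which starts type I fibrils and limits their width, was at 5.46, 5.23 and 5.68 in sham, 6.26, 6.11 and 6.14 in MCT and 6.20, 5.83 and 6.04 in MCT + NI mice. It rose by 0.71 ± 0.13, 1.64-fold (limma, adjusted p 0.0115, or 0.0557 without MCT mouse 640), and no treated mouse was as low as any sham mouse.

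Its partners in type V did not pass. Col5a1 differed by 0.21 with a 95% interval of 0.01 to 0.41 (adjusted p 0.228) and Col5a3 by 0.36 with an interval of 0.03 to 0.69 (adjusted p 0.212), although in both the MCT mice lay above the sham mice. The less bright of the Col5a1 probe sets gave 0.01. Its mean of 3.94 was below the median probe set at 4.76, so it may not follow the transcript. The other 5 fibrillar chains, Col2a1, Col11a1 and Col11a2 of cartilage and Col24a1 and Col27a1 of bone and cartilage, differed by -0.03 to 0.08 and their groups overlapped. The fibrillar class thus held 4 chains that rose and 7 that did not pass. Of the 7, Col11a1 and Col24a1 had means of 3.99 and 4.17, below the median probe set.

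The basement membrane pair had the highest differences of all collagens. Col4a1 was at 6.97, 6.79 and 7.20 in sham mice, 8.83, 8.90 and 8.57 in MCT mice and 8.89, 8.48 and 8.83 in MCT + NI mice. Col4a2 was at 7.14, 6.91 and 7.38 in sham, 8.80, 8.96 and 8.50 in MCT and 8.85, 8.58 and 8.79 in MCT + NI mice. These 2 chains assemble together into the type IV collagen found in every basement membrane, and in both the lowest treated mouse was more than 1 log2 unit above the highest sham mouse. Col4a1 rose by 1.78 ± 0.14, 3.43-fold with a 95% interval of 2.76 to 4.27 (limma, adjusted p 0.00021), and Col4a2 by 1.62 ± 0.14, 3.06-fold with an interval of 2.45 to 3.84 (adjusted p 0.000385). The other type IV chains, which replace this pair in kidney, lung and a few further sites, showed no such difference. Col4a3 and Col4a4 differed by 0.10 and 0.12, and Col4a5 and Col4a6 by -0.14 and -0.22, with adjusted p of 0.446 to 0.733 in limma, and in all 4 the groups overlapped. Col8a1, the alpha 1 chain of the short-chain collagen of vessel walls, was at 5.66, 5.88 and 5.85 in sham, 6.92, 6.88 and 6.56 in MCT and 7.07, 6.52 and 6.52 in MCT + NI mice. It rose by 0.99 ± 0.16, 1.98-fold (limma, adjusted p 0.00689), and its groups did not overlap with sham. Its partner Col8a2 differed by 0.08 (interval -0.18 to 0.35) and Col10a1, of growth plate cartilage, by -0.16 (interval -0.52 to 0.19). Col4a6, Col8a2 and Col10a1 had means of 3.90, 4.03 and 3.84, below the median probe set at 4.76.

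Of the microfibrillar class the 3 classic chains of type VI rose and the 3 later ones did not pass. Of these later ones Col6a4 and Col6a5, with means of 2.96 and 3.78, lay below the median probe set at 4.76. Col6a1 was at 7.77, 7.48 and 7.94 in sham mice, 8.63, 8.64 and 8.42 in MCT mice and 8.63, 8.41 and 8.48 in MCT + NI mice. Col6a2, whose gene lies 85162 bases from Col6a1 on chromosome 10, was at 7.09, 6.77 and 7.26, 7.88, 7.80 and 7.66 and 7.55, 7.51 and 7.61 in the same groups. Col6a3, the long chain that joins them in the type VI monomer, was at 6.08, 5.97 and 6.45, 7.14, 7.11 and 6.93 and 7.05, 6.76 and 6.98. In all 3 chains mouse 624 was the lowest and mouse 625 the highest of the sham mice, and no MCT or MCT + NI mouse was as low as any of them. The rises were 0.83 ± 0.11, 1.78-fold, for Col6a1 (limma, adjusted p 0.00327), 0.74 ± 0.11, 1.67-fold, for Col6a2 (adjusted p 0.00564) and 0.90 ± 0.13, 1.86-fold, for Col6a3 (adjusted p 0.00412). Col6a4, Col6a5 and Col6a6, 3 neighbouring genes on chromosome 9 that code for chains able to take the place of Col6a3, differed by -0.35, -0.05 and 0.11 with overlapping groups (limma, adjusted p of 0.364, 0.834 and 0.459).

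Among the other 16 chains the multiplexins, which lie beside basement membranes, had the highest differences. Col18a1, whose end fragment is endostatin, was at 5.23, 4.99 and 5.05 in sham mice, 6.48, 6.47 and 6.04 in MCT mice and 6.22, 6.12 and 6.27 in MCT + NI mice. It rose by 1.24 ± 0.12, 2.36-fold (limma, adjusted p 0.00063), with all treated mice above all sham mice. Col15a1, next to the basement membranes of muscle and capillaries, was at 7.32, 7.17 and 7.52, 8.50, 8.68 and 8.33 and 8.53, 8.18 and 8.45 in the same groups. It rose by 1.17 ± 0.12, 2.24-fold (limma, adjusted p 0.000822), likewise without overlap. Col14a1, which coats type I fibrils, was at 7.31, 7.19 and 7.31 in sham, 7.62, 7.99 and 7.93 in MCT and 7.78, 7.38 and 7.36 in MCT + NI mice. It rose by 0.58 ± 0.13, 1.49-fold (limma, adjusted p 0.0310), and the lowest MCT mouse, 640, lay about midway between the sham mice and the other MCT mice. Without any 1 of sham mice 620, 624 and 625 and MCT mice 641 and 644 its adjusted p was 0.0742, 0.108, 0.0742, 0.109 and 0.0925, so the call rested on most of the mice. Col12a1, the related coat of fibrils under load, differed by 0.23 (interval -0.02 to 0.48, adjusted p 0.293) with MCT mice above sham mice. Col23a1, a membrane-spanning chain, was the only chain with MCT mice below all sham mice, at 4.99, 5.01 and 5.20 against 4.52, 4.92 and 4.72, a difference of -0.35 with an unadjusted p of 0.0190 and an adjusted p of 0.149 in limma. The remaining 11, Col9a1, Col9a2, Col13a1, Col16a1, Col17a1, Col19a1, Col20a1, Col22a1, Col25a1, Col26a1 and Col28a1, differed by -0.16 to 0.12 and overlapped between the groups.

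**Figure D2:**
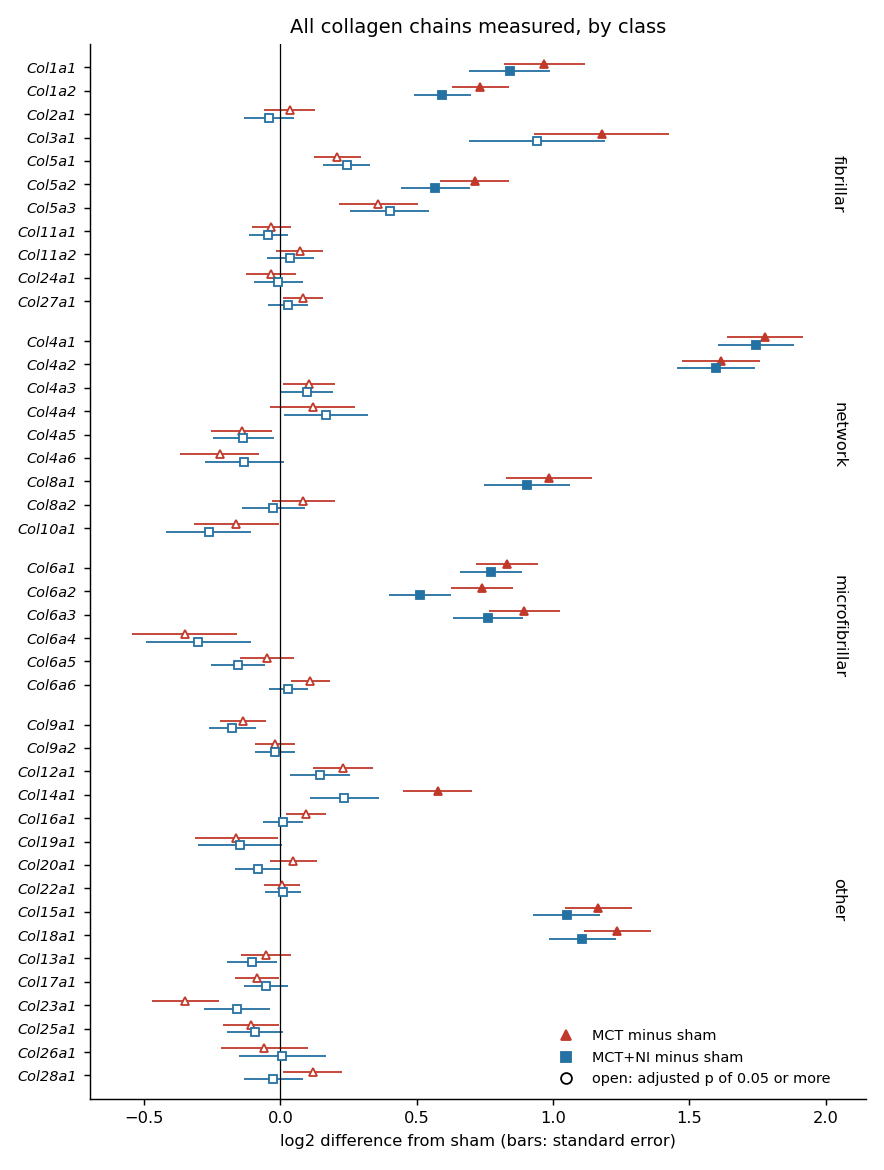
Difference from the sham mean on the log2 scale for all 42 collagen chains by class, for MCT mice (triangles) and MCT + NI mice (squares), with bars of 1 standard error and filled symbols for an adjusted p under 0.05. Filled symbols are all to the right of 0, from 0.51 for Col6a2 in MCT + NI mice to 1.78 for Col4a1 in MCT mice, and the other chains lie between -0.35 and 0.94.

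All 13 chains that rose were brighter than the median probe set of the arrays, which was at 4.76, the dimmest of them having a mean of 5.88. Of the 26 chains above this level 13 rose, and of the 16 below it 0 did, the smallest adjusted p among those 16 being 0.293 in limma. In the dim group 0 chains also passed an unadjusted p of 0.05. A dim probe set may not follow its transcript, so for these 16 chains the array gives no measure of whether the RNA was there. They were Col4a6, Col6a4, Col6a5, Col8a2, Col9a1, Col9a2, Col10a1, Col11a1, Col12a1, Col17a1, Col19a1, Col22a1, Col24a1, Col25a1, Col26a1 and Col28a1. In 26 of the 42 chains at least 2 mice had exactly the same deposited value, and 0 of these were among the 13 that rose.

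**Figure D3:**
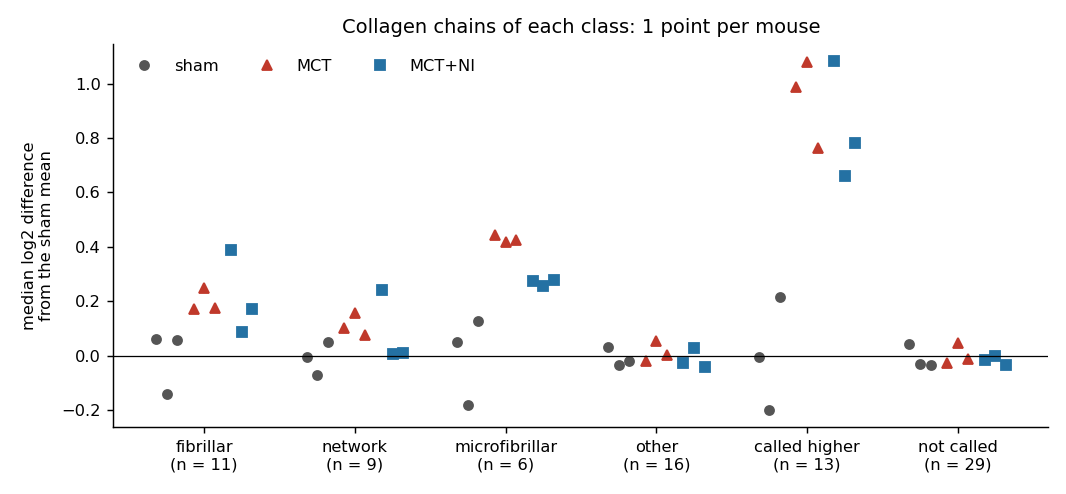
Median log2 difference from the sham mean over the chains of each class and over the 13 chains called higher in MCT mice and the 29 not called, with 1 point per mouse. The microfibrillar medians are 0.42 to 0.44 in MCT and 0.26 to 0.28 in MCT + NI mice. With 6 chains, of which 3 rose, each of these lies midway between a chain that rose and one that did not pass. They therefore do not stand for the class. Between both MCT groups Col6a1 and Col6a3 overlap, with differences of -0.06 and -0.13, and Col6a2 differs by -0.23 without overlap. The medians of the 29 chains not called stay within 0.05 of 0. The 13 called chains, chosen on these mice, serve as a description.

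Pairs of chains were compared within each mouse, as the log2 difference between both chains relative to its mean in sham mice. This removes what raised both alike. Most pairs were partners in one collagen. However, Col3a1 belongs to another type than Col1a1, and Col4a5 to other type IV networks than Col4a1. There were 8 pairs and 3 comparisons, so 24 tests, and an exact two-sided permutation test of 3 against 3 mice cannot give a p under 0.1. Between MCT and sham mice Col4a1 drew away from Col4a5, an alpha chain of the other type IV networks, by 1.92, with sham mice at -0.00, -0.30 and 0.31 and MCT mice at 1.94, 2.14 and 1.68 (exact permutation p = 0.1, adjusted 0.24). Col8a1 less Col8a2 shifted by 0.90 and Col5a2 drew away from Col5a1 by 0.50, both without overlap of the groups (exact permutation p = 0.1, adjusted 0.24). Col8a2 had a mean of 4.03, below the median probe set at 4.76, and may not follow its transcript. Its pair therefore cannot show whether the RNA of these partners moved apart. The other pairs shifted less. Col4a1 less Col4a2 shifted by 0.16 and Col6a1 less Col6a2 by 0.09, both without overlap (exact permutation p = 0.1, adjusted 0.24). Shifts of 0.23 for Col1a1 less Col1a2, -0.21 for Col1a1 less Col3a1 and -0.06 for Col6a1 less Col6a3 left the groups overlapping (exact permutation p of 0.2, 0.2 and 0.7). Between MCT + NI and MCT mice Col6a1 less Col6a2 was the only pair without overlap. It was at 0.06, 0.15 and 0.08 in MCT mice and 0.39, 0.21 and 0.18 in MCT + NI mice, a shift of 0.17 (exact permutation p = 0.1, adjusted 0.24) and of 0.09 without mice 644 and 615.

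**Figure D4:**
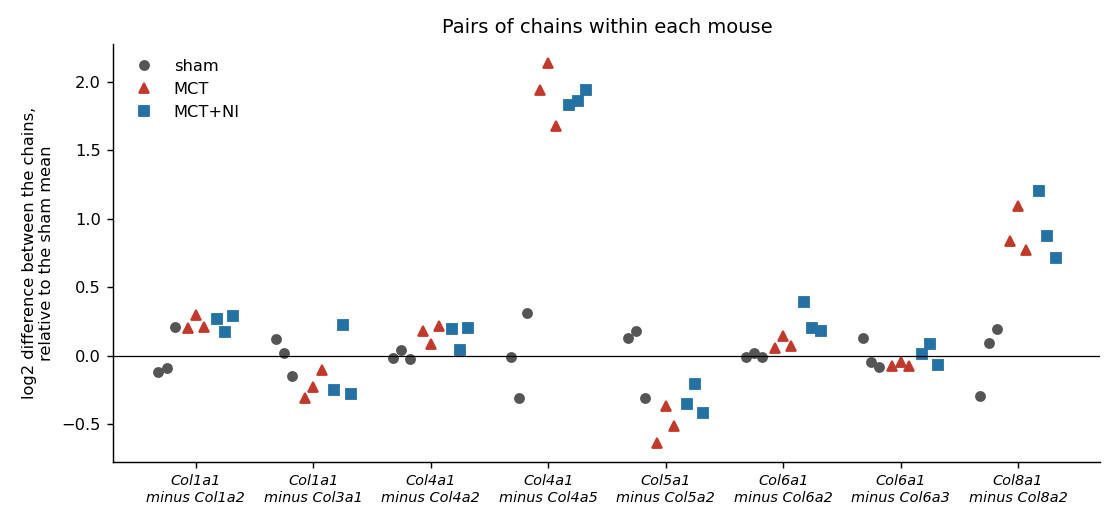
Log2 difference between the chains of each of 8 pairs in every mouse, relative to the mean of the sham mice, with 1 point per mouse. For Col4a1 less Col4a5 the MCT and MCT + NI points lie between 1.68 and 2.14 and the sham points between -0.30 and 0.31, whereas for Col1a1 less Col3a1 the groups overlap.

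Between MCT + NI and MCT mice 0 of the 42 collagen chains passed in limma, as did 0 of all genes, and every adjusted p of a chain was 1. At an unadjusted p under 0.05 there were 0 chains higher and 1 lower, Col14a1, where 1.59% of all genes were higher and 1.3% lower. Signs were negative in 28 of the 42 chains and in 9845 of all 18820 genes. The median difference was -0.05 over the chains and -0.00 over all genes. In each of the 13 chains that were higher in MCT mice the MCT + NI mean lay below the MCT mean and above the sham mean. These comparisons share the MCT mice, so a high MCT mean raises one difference and lowers the other, and the 13 chains ranked the mice alike (below), so they are not independent of each other. The mice on arrays were matched for severity of disease, and what this did to the comparison of both MCT groups was not tested.

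Col14a1 was the chain that differed most between the MCT groups, at 7.78, 7.38 and 7.36 in MCT + NI mice against 7.62, 7.99 and 7.93 in MCT mice. MCT + NI mice 617 and 619 were close to the highest sham value and mouse 615 lay within the MCT range. The difference was -0.34 ± 0.13 with a 95% interval of -0.63 to -0.05, an unadjusted p of 0.0256 and an adjusted p of 1 in limma. Leaving out 1 mouse at a time gave -0.48 to -0.27. Col6a2 was the only chain whose MCT + NI mice were all below the MCT mice and 0 chains had them all above, where 2.96% and 3.11% of all genes did, with a difference of -0.23 (interval -0.48 to 0.03, unadjusted p 0.0772 and adjusted p 1 in limma). Differences of the other 11 chains were from -0.24 for Col3a1 to -0.02 for Col4a2. Their intervals were wide beside the sizes looked for. For Col1a1 the interval of -0.46 to 0.21 allows a fall of 0.46 where MCT had raised the chain by 0.97, and for Col3a1 it reached from -0.80 to 0.33. For Col4a1 and Col4a2 the intervals were -0.35 to 0.28 and -0.34 to 0.31, which do not reach back to the sham means at 1.78 and 1.62 below. Of the difference between MCT and sham, MCT + NI mice held from 40.7% (Col14a1) to 98.9% (Col4a2), with a median of 86.9% over the 13 chains, and 69.3% for Col6a2, 79.9% for Col3a1 and 86.9% for Col1a1, as shares of log2 differences.

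**Figure D5:**
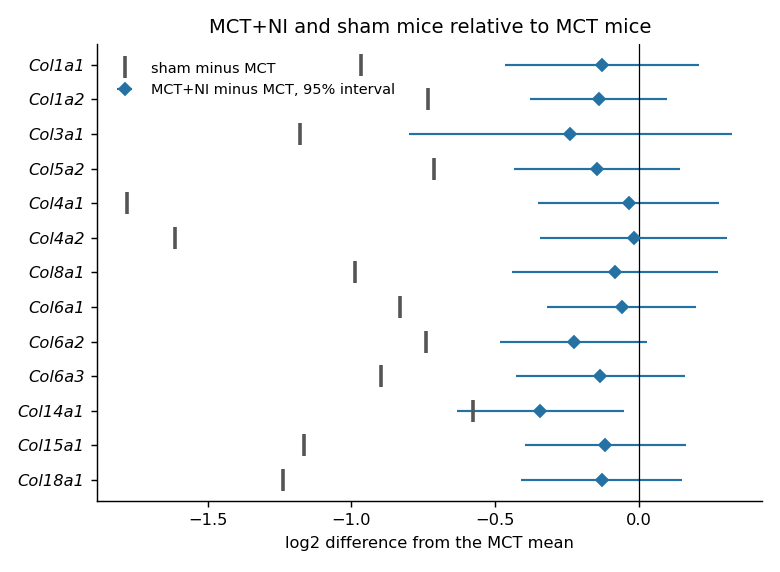
Difference of MCT + NI from MCT mice (diamonds, with 95% intervals) and of sham from MCT mice (ticks) on the log2 scale for the 13 chains that were higher in MCT mice. All diamonds lie left of 0, all intervals but that of Col14a1 cross 0, and only for Col14a1 does the interval of -0.63 to -0.05 reach the sham tick at 0.58 below the MCT mean.

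Compared with sham mice, 11 collagen chains were higher in MCT + NI mice and 0 lower by the limma test, where 4.52% of all genes were higher and 1.75% lower. At an unadjusted p under 0.05 there were 14 higher and 0 lower, where all genes gave 10.2% and 9.37%, and the groups did not overlap in 14 higher and 0 lower chains, where all genes gave 10.7% and 10.3%. The 11 were those of the list above less Col3a1 and Col14a1, and both comparisons share the sham mice. Col4a1 was 1.74 and Col4a2 1.60 above sham (adjusted p of 0.000243 and 0.000411 in limma), Col18a1 1.11 and Col15a1 1.05, and Col8a1 0.90. The differences of Col1a1 and Col1a2 were 0.84 and 0.59 (adjusted p 0.0115 and 0.0113) and those of Col6a1, Col6a3 and Col6a2 were 0.77, 0.76 and 0.51. Col3a1 was at 9.01, 8.11 and 8.73 in MCT + NI mice, so that mouse 617 was level with sham mouse 625, and its difference of 0.94 (interval 0.38 to 1.50) had an adjusted p of 0.0616, or of 0.0165 without mouse 617 and 0.0379 without mouse 625. Col14a1 was 0.23 above sham with no overlap (interval -0.05 to 0.52, adjusted p 0.367). Col5a2 and Col6a2, at 0.57 and 0.51 with adjusted p of 0.0328 and 0.0309, were the least firm of the 11. Leaving out 1 mouse at a time took the call of Col5a2 away in 7 of 9 cases and that of Col6a2 in 5, with adjusted p up to 0.114 and 0.118. Leaving out both mouse 644 and mouse 615 gave 7, where 2.7% of all genes were higher, and with the atrial markers' mean as a covariate 4, where 1.66% were. The 7 chains no longer called under this covariate had adjusted p of 0.0792 to 0.311 in limma. They differed by 0.85 (Col1a1), 0.60 (Col1a2), 0.61 (Col5a2), 0.93 (Col8a1), 0.71 (Col6a1), 0.39 (Col6a2) and 0.72 (Col6a3). The atrial mean was 10.13 to 11.01 in sham and 5.67 to 9.12 in MCT + NI mice, without overlap. The covariate and these groups can thus hardly be told apart. The median difference was 0.02 over the 42 chains and -0.02 over all genes, and by class it was 0.24 for fibrillar, 0.10 for network, 0.27 for microfibrillar and -0.02 for other chains.

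Within a group the 13 chains ranked the mice alike. Sham mouse 624 was the lowest sham mouse in 12 of the 13 chains and sham mouse 625 the highest in 9. MCT mouse 644 was the lowest of its group in 11, and MCT mice 640 and 641 were the highest in 6 and 7. MCT + NI mouse 615 was the highest of its group in 11 and mouse 617 the lowest in 11. The median of the 13 chains, as a difference from the sham mean, was -0.00, -0.20 and 0.21 in the sham mice, 0.99, 1.08 and 0.76 in the MCT mice and 1.08, 0.66 and 0.78 in the MCT + NI mice. One MCT + NI mouse was therefore as high as the highest MCT mouse, and the MCT mouse with sham-like atrial markers was the lowest while the MCT + NI mouse nearest to it in those markers was the highest. The 29 chains not called had medians of -0.03 to 0.05 in all 9 mice.

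Lists of other genes that make, secrete, cross-link, bind and degrade collagen held 61 genes, of which 56 were measured. Between MCT and sham mice 14 of them were higher and 1 lower in limma, and between MCT + NI and sham mice 11 and 1, where 4.65% and 1.61%, and 4.52% and 1.75%, of all genes were. The median difference was 0.20 and 0.10. Without sham mouse 624 the 14 became 9, where 3.4% of all genes were higher. Without MCT mouse 640 or 641 the 14 became 7, where 2.94% and 3.32% were. Between MCT + NI and MCT mice 0 passed in limma, with 1 lower at an unadjusted p under 0.05. In the endoplasmic reticulum 3 of 17 folding and modification genes rose, namely Plod1, a lysyl hydroxylase, by 0.43, Serpinh1, the collagen chaperone Hsp47, by 0.51, and Colgalt1, which adds galactose to hydroxylysine, by 0.29 (limma, adjusted p of 0.00119, 0.0167 and 0.0245). Serpinh1 was at 6.54, 6.85 and 6.86 in sham, 7.26, 7.26 and 7.26 in MCT and 7.39, 7.10 and 7.27 in MCT + NI mice, so both treated groups were above all sham mice. Of 13 secretion and processing genes 3 rose, Sparc by 1.45, Pcolce by 0.54 and Bmp1 by 0.31 (adjusted p of 9.44e-05, 0.0358 and 0.0358). Sparc is a collagen-binding matricellular protein, Bmp1 the protease that removes the tail propeptide of fibrillar procollagens and Pcolce its enhancer. Sparc was at 10.32, 10.17 and 10.43 in sham, 11.79, 11.92 and 11.54 in MCT and 11.80, 11.68 and 11.72 in MCT + NI mice, without overlap with sham.

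Among 5 cross-linking enzymes Loxl2, a lysyl oxidase relative that acts on type IV collagen, rose by 1.33 (limma, adjusted p 0.00156). Lox itself differed by 0.13 (limma, adjusted p 0.530). Its values of 3.82 to 4.23 lay below the median probe set at 4.76, so its probe set may not follow the transcript. Loxl1 differed by 0.58 with all MCT mice above the sham mice, but did not pass (limma, adjusted p 0.0721). Of 10 receptors 5 rose. Itga2 and Itga1, the alpha subunits of collagen-binding integrins, were higher by 1.37 and 0.40, their partner Itgb1 by 0.31, Ddr2, a receptor tyrosine kinase for fibrillar collagen, by 0.49 and Mrc2, which takes up collagen for breakdown, by 0.46 (limma, adjusted p of 0.000695 to 0.0489). Of 11 genes of degradation Mmp2 and Mmp14, a gelatinase and the membrane protease that activates it, rose by 1.19 and 1.16, and Timp4, a protease inhibitor of the heart, fell by 2.37 (limma, adjusted p of 0.00138, 0.0158 and 0.00063). Timp4 was at 7.03, 6.35 and 6.06 in sham mice, 4.17, 3.83 and 4.32 in MCT mice and 4.43, 4.84 and 4.53 in MCT + NI mice. The groups given MCT were below every sham mouse, the opposite direction to the chains.

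Markers of the cells that make collagen were read beside the chains. Between MCT and sham mice 4.65% of all genes were higher and 1.61% lower in limma. Of the genes above the median probe set 7.45% were higher. Of 9 fibroblast markers 2 were higher and 0 lower in MCT than in sham mice in limma, Ddr2 and Mfap5, and the list mean was 8.45 to 8.65 in sham, 8.59 to 8.87 in MCT and 8.48 to 8.73 in MCT + NI mice, so the groups overlapped. Pdgfra, Tcf21 and Dcn, which define cardiac fibroblasts, differed by -0.19, -0.09 and 0.03 (adjusted p of 0.430, 0.670 and 0.887). Of 8 markers of activated fibroblasts 2 were higher and 0 lower in limma. These were Meox1, a transcription factor, by 2.13 and Postn, which codes for periostin, by 1.15 (limma, adjusted p of 7.08e-06 and 0.0125). At an unadjusted p under 0.05 there were 4 higher and 1 lower, Comp at -1.57 (limma, unadjusted p 0.0484, adjusted p 0.249). Comp was at 5.38, 6.71 and 6.49 in sham, 3.84, 3.82 and 6.22 in MCT and 5.72, 4.13 and 4.49 in MCT + NI mice. The list mean was 6.07 to 6.30 in sham, 6.49 to 6.82 in MCT and 6.51 to 6.82 in MCT + NI mice, with mice 644 and 615 at the top. Markers of the vessel wall differed as well. Of 10 markers of smooth muscle and pericytes 7 were higher, of which Cspg4 (0.81) and Pdgfrb (0.47) had the smallest p, with list means of 8.03 to 8.04 in sham, 8.28 to 8.50 in MCT and 8.34 to 8.40 in MCT + NI mice. Of 10 endothelial markers 4 were higher and 1 lower, Cdh5, which codes for the cadherin of endothelial junctions, by 0.74 and Flt1, a receptor for vascular endothelial growth factor, at -0.71, with list means of 8.37 to 8.55, 8.63 to 8.71 and 8.56 to 8.80. Of 10 macrophage markers 3 were higher and 1 lower, Lyz2 at 0.70 and Cd163 at -1.20 having the smallest p of each direction, with list means of 7.02 to 7.34, 7.27 to 7.60 and 7.11 to 7.52.

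Epicardial and valve markers are also expressed by cells rich in collagen. Beside the counts below, 4.65% of all genes were higher and 1.61% lower in MCT than in sham mice. Of 8 epicardial markers Wt1 was higher by 0.97 (limma, adjusted p 0.00172), while the list mean was 4.59 to 4.84 in sham, 4.20 to 5.30 in MCT and 4.44 to 5.35 in MCT + NI mice, with mice 644 and 615 at the top. Of 8 valve and cartilage-like markers, 4 adipocyte markers and the 1 Schwann cell and 1 red cell marker measured, 0 passed in limma, with 1 valve marker past an unadjusted p of 0.05. The 7 atrial markers differed by a median of -2.64. When the mean of the endothelial markers was added to the model as a covariate, chosen after the data had been seen, 3 chains were still higher in MCT than in sham mice, Col4a1 by 1.33, Col4a2 by 1.23 and Col15a1 by 0.79 (limma, adjusted p of 0.00489, 0.0233 and 0.0395), where 0.627% of all genes were higher. Col18a1 then differed by 1.11 (adjusted p 0.0666) and Col1a1 by 0.53 (adjusted p 0.270). The endothelial mean itself did not overlap between sham and MCT mice, so that the covariate and the groups can hardly be told apart, and the part of any cell type in the collagen differences was not tested.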

How the data were processed

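The authors hybridised 1 Affymetrix array per mouse and deposited log2 values after robust multi-array averaging (the methods name affyPLM), for 35556 probe sets. Of these 21218 were paired with 1 gene, 1881 with several and 12457 with none by the platform annotation, and the brightest probe set of a gene alone was taken, giving 18820 genes. Groups followed the labels. The 9 mice have separate numbers, so p-values measure the spread between mice, and with 3 per group their number limits the precision. According to the methods these mice were matched for severity of disease, so the spread is that of chosen mice. One mean per group was fitted over all 9 mice in limma 3.58.1 (R 4.3.3, lmFit, eBayes with an intensity trend, two-sided), with Benjamini-Hochberg adjustment over all 18820 genes and a threshold of 0.05. The calculation was tested on simulated data. All 42 chains were kept without a filter on level, and the text names every chain. From the lists of other genes it names those called or defining a list, and Comp, Loxl1 and Acta2. The members, classes, pairs and lists were chosen with earlier results of these data known. Alternatives were other probe set rules, dim genes left out, all probe sets tested, other variance models, array weights, quantile normalization again, an atrial covariate, unadjusted p and each mouse left out. An endothelial covariate and the alternatives for the lists were added after the data had been seen.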

Additional observations from a re-analysis of the deposited data

How the results depend on the processing

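No difference that passed the test changed sign under the alternatives. Differences that did not pass did: Col3a1 in MCT + NI against sham mice went from 0.94 to -0.03 with the endothelial covariate, and between MCT + NI and MCT mice Col3a1 became 0.02 and Col4a1 0.09 without mouse 617, while Col4a2 and Col8a1 also took either sign. Medians near 0 changed sign too: that of the network chains against sham became -0.03 in MCT and -0.06 in MCT + NI mice with the endothelial covariate, and -0.00 in MCT + NI mice without mouse 615, and those of the other chains against sham and of the network chains between MCT + NI and MCT mice took either sign, as did pair differences close to 0. In all 21 settings tested by adjusted p, Col4a1, Col4a2 and Col15a1 kept their rise in MCT mice, and Col4a1 and Col4a2 theirs in MCT + NI mice. The 13 chains higher in MCT mice became 8 with the atrial covariate, 3 with the endothelial covariate and 11 to 13 without 1 mouse. Of all genes 2.16%, 0.627% and 2.94% to 4.71% were higher in these settings. With all probe sets tested the 13 became 11, where 2.22% of all probe sets were higher. Col3a1 (adjusted p 0.0632) and Col14a1 (adjusted p 0.0728) were then lost in limma. The 11 chains higher in MCT + NI than in sham mice became 4 and 2 with the atrial and endothelial covariates and 9 to 12 without 1 mouse. Of all genes 1.66%, 0.43% and 2.69% to 4.55% were higher in these settings. Without mice 644 and 615 the 11 became 7 (Col1a1, Col5a2, Col6a2 and Col6a3 lost), where 2.7% of all genes were higher. At unadjusted p, 1 chain was lower in MCT than in sham and 1 in MCT + NI than in MCT mice. Leaving out dim genes raised the median difference from sham in MCT mice to 0.47 for all chains, 0.55 for network, 0.78 for microfibrillar and 0.093 for other chains, and in MCT + NI mice to 0.32, 0.54 and 0.64 for all, network and microfibrillar chains, because fewer low chains were counted, and the median of other chains between MCT + NI and MCT mice was then -0.12. With the endothelial covariate the medians against sham were 0.31 for microfibrillar and 0.10 for other chains in MCT mice and 0.054 for other chains in MCT + NI mice. The least bright probe set gave a fibrillar median of 0.037 in MCT + NI mice and put Col5a1 less Col5a2 at -0.70 in MCT and -0.57 in MCT + NI mice. The Col5a1 probe set used there had a mean of 3.94, below the median probe set at 4.76. Col6a1 less Col6a2 differed by 0.093 between MCT + NI and MCT mice without mice 644 and 615. The lists of other genes had, in MCT against sham mice, 9 higher with the atrial covariate, 2 with the endothelial covariate, 23 at unadjusted p, 9 without mice 644 and 615 and 7 to 14 without 1 mouse, and 2 lower with only the groups compared, 3 at unadjusted p and 1 to 2 without 1 mouse. In MCT + NI against sham mice they had 5, 1 and 22 higher with the atrial covariate, the endothelial covariate and unadjusted p and 8 to 14 without 1 mouse, and 2 lower with array weights, 0 with the endothelial covariate, 8 at unadjusted p and 1 to 3 without 1 mouse. Between MCT + NI and MCT mice 1 was lower at unadjusted p. Where no reason is given the cause was not tested. No paired analysis was possible because each mouse number belongs to 1 mouse of 1 group.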

Other observations

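The probe set shared by Tcfl5 and Col9a3 differed by -0.29 between MCT and sham mice (limma, unadjusted p 0.0188, adjusted p 0.223), and the one shared by Mir711 and Col7a1 by -0.02, and neither can be assigned to the collagen gene. Col5a1, Col20a1, Col6a5 and Col6a6 each had a second probe set, which differed by 0.01, 0.01, -0.03 and 0.05 and did not pass. Those of Col5a1 and Col6a5, with means of 3.94 and 2.95, lay below the median probe set at 4.76.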
